A study of Mus musculus with 21 samples.

Results

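Rag1 and Rag2 encode the 2 subunits of the V(D)J recombinase, and Dntt encodes terminal deoxynucleotidyl transferase (TdT). These 3 genes were picked by symbol from the 55421 identifiers of the expression table, together with every Zbtb1 or Cbfa2t3 binding site for which one of them was listed as the nearest gene. The recombinase cuts antigen receptor gene segments at their recombination signals, and TdT adds nucleotides without a template to the cut ends before the general end-joining proteins seal them. Transcription of these genes begins in lymphoid progenitors ahead of the choice between B and T lineage, and TdT has long served as a marker of early lymphoid cells. Rag1 and Rag2 lie beside each other and share control elements, whereas Dntt lies on another chromosome.

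Expression was measured in a mouse lymphoid progenitor (LP) line of the C57BL6/J strain, which lacks functional Ebf1, the B lineage factor without which these progenitors do not become B cells. The cells grew on OP9 stroma with SCF, IL-7 and Flt3L and without Notch stimulation, carried a Cas9-GFP retrovirus and then received a retrovirus with sgRNAs and the hNGFR marker. The sgRNAs were directed at Lmo2 (a bridging protein of transcription complexes), Zbtb1 (a zinc finger repressor), Cbfa2t2 or Cbfa2t3 (corepressors of the ETO family), or were the control, called sgControl here and sgCont in the labels. Each of the 5 conditions had 3 QuantSeq libraries, which count tags at the 3′ ends of transcripts, made from GFP+ hNGFR+ cells sorted 5 days after the sgRNA virus. All groups shared the Ebf1 deficiency, the cytokines and Cas9, and each was a bulk population of edited cells of a cell line with a pool of 2 sgRNA vectors per gene. Binding of Zbtb1 and Cbfa2t3 was mapped by ChIP-seq in LP cells without sgRNA, with 2 replicates per factor combined into 1 list of reproducible sites.

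The libraries held between 1705416 and 2095447 reads, so that 3 reads corresponded to between 1.43 and 1.76 TPM (3′ tags scaled to library size and not divided by gene length, the unit used throughout). Mitochondrial transcripts took between 5.03% and 6.89% of a library. The sgControl libraries stood apart in both measures. Their mitochondrial share was 6.72% or more, against at most 6.48% elsewhere, and they held at most 1727730 reads, against at least 1751378 elsewhere. This separation goes with every comparison against sgControl, and its part in them was not tested. The mRNA of the targeted genes gave no check of the labels by its loss: Zbtb1 mRNA was higher in the libraries labelled sgZbtb1 (106 against 61.7 TPM in sgControl, log2 difference 0.77, limma adjusted p = 0.00102), and Cbfa2t3 mRNA was higher in those labelled sgCbfa2t3 (350 against 190 TPM, log2 difference 0.88, limma adjusted p = 1.67e-07). Cbfa2t2 mRNA measured 21.9 TPM with its own sgRNA against 11.8 in sgControl (limma adjusted p = 0.412), and Lmo2 mRNA 16.3 against 18.4 TPM (adjusted p = 0.957). Tags at the 3′ end need not fall when a coding exon is edited, and the conditions are named by their labels. By immunoblot, the paper reports loss of Lmo2, Zbtb1 and Cbfa2t3 protein in Cas9-expressing LP cells given the matching sgRNAs. Ebf1 mRNA was also present, with condition means between 217 and 336 TPM. Of the lymphoid progenitor markers Ptprc, Flt3, Il7r, Kit and Ly6d, all 5 passed the low-value filter, whereas Cd79a of B lineage cells, Ptcra and Cd8a of T lineage cells, Elane of granulocytes and Hba-a1 of erythroid cells were listed at 0 in all 15 libraries. Other markers of these lineages were present, among them Lck (mean 70.8 TPM), Bcl11b (15.5 TPM) and Cd247 (2.72 TPM) of T lineage cells, Pax5 (4.96 TPM) of B lineage cells, and Cebpa (9.87 TPM), Itgam (9.08 TPM) and Mpo (5.47 TPM) of myeloid cells.

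The binding sites are given before the expression values because all of those assigned to the 3 genes lay at Dntt. Dntt (ENSMUSG00000025014) lies at chr19:41029275-41059525 on the plus strand. Cbfa2t3 had 2 sites with Dntt as the nearest gene, and Zbtb1 had none with Rag1, Rag2 or Dntt as the nearest gene. Of the genes that passed the low-value filter, 20.5% were the nearest gene of at least 1 Cbfa2t3 site and 26.8% of at least 1 Zbtb1 site, so that 0 of 3 for Zbtb1 is near the background. In the list of 6077 Cbfa2t3 sites, those at Dntt had HOMER scores of 167.2 and 167.9, where the median site scored 33.2. In all, 2.99% and 2.93% of the Cbfa2t3 sites scored higher, which placed them at ranks 183 and 179. The upstream site, chr19:41022204-41022582 (mm10), was intergenic, with its centre at -6882 bp from the Dntt start. The downstream site, chr19:41039147-41039525, lay in intron 3 of Dntt, centred 10061 bp after the start and between exon 3, which ends at 41039002, and exon 4, which starts at 41039774. Of the 11554 genes that passed the low-value filter, 7.14% were the nearest gene of at least 2 Cbfa2t3 sites and 9 genes, Dntt included, had at least 2 with scores as high as the lower of these. No Zbtb1 site overlapped either, and the nearest Zbtb1 site was centred 190850 bp from the upstream site.

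The 200 bp at the centre of both Dntt sites and of a Zbtb1 site at the Rag locus are printed because they are the bound sequences at these genes. They were read from the plus strand of the GRCm38 genome and run from chr19:41022294-41022493, chr19:41039237-41039436 and chr2:101635301-101635500. Capitals mark, on either strand, the E-boxes bound by E proteins (with letters CAGCTG and, as a second form, CAGGTG), the ETS factor core AGGAAG, the core AGATAA of GATA factors, the Runx core TGTGGT and the core of the Zbtb7c motif, TGGTGGT. Both E-boxes are forms of the general E-box CANNTG, which was searched but not capitalised. Positions are counted from 1 at the 5′ end.
Cbfa2t3 site upstream of Dntt: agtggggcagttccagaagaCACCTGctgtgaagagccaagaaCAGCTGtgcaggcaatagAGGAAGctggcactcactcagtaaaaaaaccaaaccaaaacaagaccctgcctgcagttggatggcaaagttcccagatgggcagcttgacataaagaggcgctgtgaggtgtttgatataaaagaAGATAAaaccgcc
Cbfa2t3 site in intron 3 of Dntt: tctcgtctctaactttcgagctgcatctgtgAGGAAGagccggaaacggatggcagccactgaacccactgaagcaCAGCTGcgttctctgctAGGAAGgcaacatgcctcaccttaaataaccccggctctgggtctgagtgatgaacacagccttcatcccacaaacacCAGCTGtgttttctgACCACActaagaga
Zbtb1 site between Rag2 and Rag1: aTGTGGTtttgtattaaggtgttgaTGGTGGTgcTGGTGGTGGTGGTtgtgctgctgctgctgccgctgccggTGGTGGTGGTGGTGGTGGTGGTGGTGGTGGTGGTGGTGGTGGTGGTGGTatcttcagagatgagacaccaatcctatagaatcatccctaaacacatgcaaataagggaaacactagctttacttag

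The upstream Dntt site held the second E-box form on the minus strand at positions 21 to 26, the first form at 44 to 49, the ETS core at 62 to 67 and the GATA factor core at 188 to 193. The intronic site held the first E-box form at positions 77 to 82 and 172 to 177, the ETS core at 32 to 37 and 94 to 99, and the Runx core on the minus strand at 187 to 192. Both sites therefore carried at least 1 E-box of the E protein type and at least 1 ETS core. Among all Cbfa2t3 sites in windows of the same length, 47.4% held the first form of the E-box and 41.6% the second, 89.3% held the general form, 45.2% the ETS core, 43.7% the Runx core and 6.47% the GATA factor core. All but the last were thus common in this list. Neither site held the forkhead letters GTAAACA, found in 2.39% of Cbfa2t3 sites, or the Zbtb7c core, found in 7.02%. A match in these windows is a description of the letters and does not show which protein bound.

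At the Rag locus, Rag2 (ENSMUSG00000032864, chr2:101624718-101632529, plus strand) and Rag1 (ENSMUSG00000061311, chr2:101638282-101649501, minus strand) point toward each other and are separated by 5752 bp. A Zbtb1 site, chr2:101635215-101635585, lay in this interval, 2686 bp beyond the end of Rag2 and 2697 bp beyond the 3′ end of Rag1. The list annotated it as intergenic and assigned it to B230118H07Rik, a gene on the minus strand whose annotated span covers both Rag genes, so it is not counted among the sites assigned to Rag1 or Rag2. Its score of 24.7 was below the median of 28 for Zbtb1 sites, and 58.4% of the 5898 sites scored higher. Its centre is largely a simple repeat: the longest run of GGT units in the printed window had 17 units, a length reached in 1.14% of the Zbtb1 sites and in 0 of 6070 Cbfa2t3 sites. The Zbtb7c core occurred 19 times within it, counting overlaps, and 15.8% of Zbtb1 sites held it at least once. How the alignment of reads to this repeat bears on the site was not tested.

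Within 100 kb of the start sites there were 2 further places bound by either factor. The first, in an intron of Prr5l at -83.4 kb from the Rag1 start, was bound by both factors: the Cbfa2t3 site chr2:101732710-101733088 scored 50, the Zbtb1 site chr2:101732658-101733028 scored 29.7, and they overlapped by 319 bp. The second, in intron 4 of Blnk at -66.0 kb from the Dntt start, was the Cbfa2t3 site chr19:40963059-40963437 with a score of 34.9. At the Dntt locus Cbfa2t3 thus had 3 sites within 100 kb and Zbtb1 had 0, and at the Rag locus Zbtb1 had 2 and Cbfa2t3 had 1. Each list is combined over replicates, so these counts carry no replicate error.

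**Figure D1:**
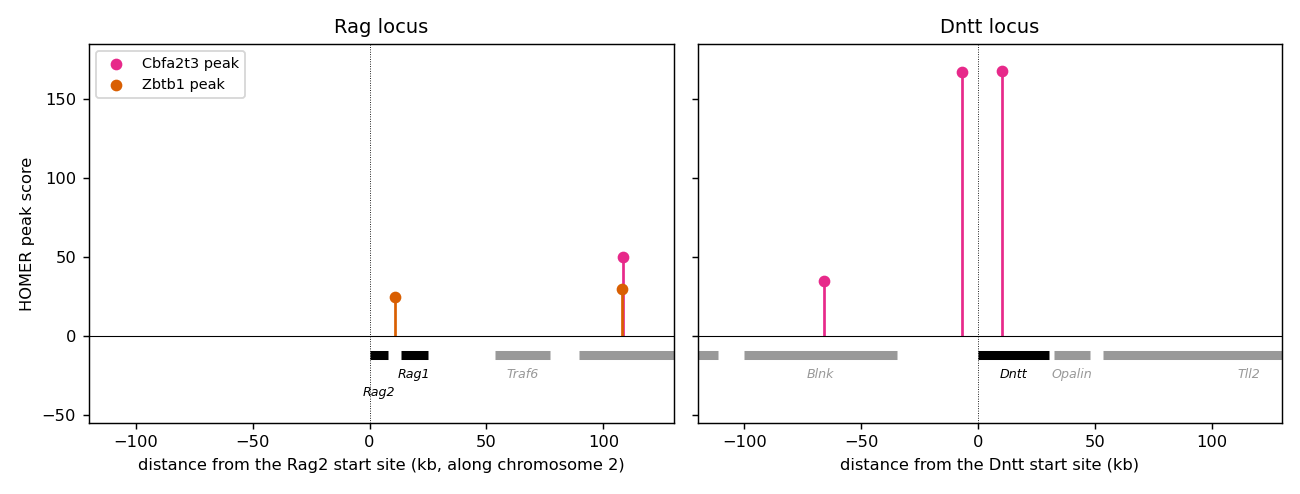
HOMER peak score of each Cbfa2t3 (pink) and Zbtb1 (orange) site against its distance in kb from the Rag2 start along chromosome 2 (left) and from the Dntt start (right), with gene bodies as bars below (the members in black, neighbours in grey, the unlabelled bar at the right edge of the Rag panel being Prr5l; B230118H07Rik is not drawn). The 2 Cbfa2t3 sites at scores of 167.2 and 167.9 stand on both sides of the Dntt start, and the Zbtb1 site at 24.7 stands between the Rag genes.

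Rag1 and Rag2 mRNA were detected in all 15 libraries but at the edge of what this depth resolves. Rag1 had 58 reads in all, between 2 and 8 per library, and 8 of the 15 libraries held 3 reads or fewer. Rag2 had 83 reads in all, between 2 and 13 per library, and 5 libraries held 3 reads or fewer. Dntt had 2450 reads, between 90 and 245 per library, and a mean of 86.4 TPM (tags, without regard to length) that exceeded the mean of 79.9% of the genes tested. The 3 genes thus differ in how small a change the libraries could show, and for Rag1 and Rag2 that limit is wide.

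Rag1, the subunit with the catalytic site, measured 2.32, 1.16 and 1.17 TPM in sgControl, 4.52, 1.47 and 3.83 TPM in sgLmo2 and 1.68, 0.956 and 0.982 TPM in sgZbtb1. It measured 2.66, 2.86 and 1.45 TPM in sgCbfa2t2 and 2.68, 1.14 and 2.22 TPM in sgCbfa2t3. The 2 highest libraries were both labelled sgLmo2 and the 2 lowest both sgZbtb1, but each condition overlapped sgControl. Those 2 sgZbtb1 libraries held 2 Rag1 reads each, as did sgControl replicates 2 and 3 and sgCbfa2t3 replicate 2. Library depth alone set the order among these, so the lowest place of sgZbtb1 is not a difference in reads. Summed over its 3 libraries sgLmo2 held 18 Rag1 reads, or 3.19 TPM with an exact Poisson 95% interval of 1.89 to 5.04, against 8 reads and 1.55 TPM (0.670 to 3.06) in sgControl. These intervals cover counting error only, and they overlap.

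Rag2, the accessory subunit, measured 6.39, 1.16 and 1.17 TPM in sgControl, 2.26, 1.47 and 2.74 TPM in sgLmo2 and 1.68, 4.30 and 3.93 TPM in sgZbtb1. It measured 1.06, 6.20 and 2.42 TPM in sgCbfa2t2 and 2.14, 4.57 and 2.22 TPM in sgCbfa2t3. The highest of all 15 values was in sgControl replicate 1 and the other 2 controls were among the 3 lowest, so the controls alone spanned nearly the whole range. No condition stood apart from another.

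Against sgControl, the log2 differences of Rag1 were 0.69 in sgLmo2 (SE 0.55, 95% interval -0.41 to 1.80), -0.20 with sgZbtb1, 0.38 with sgCbfa2t2 and 0.23 with sgCbfa2t3. Those of Rag2 were -0.07, 0.34, 0.18 and 0.23 in the same order, each with an SE of 0.56. All are on the scale of log2(TPM + 1), which understates changes at such low levels. In limma fitted to all 11554 genes, 0 of these 8 comparisons passed a Benjamini-Hochberg adjusted p of 0.05, 0 had an unadjusted p under 0.05, and the lowest adjusted p was 0.818. The lowest end of the 8 intervals was -1.30 (Rag1 in sgZbtb1) and the highest was 1.80 (Rag1 in sgLmo2). With intervals this wide, changes near 2-fold could go undetected at this depth and are not shown to be absent. None of the 12 comparisons of Rag1 or Rag2 between the gene-targeting sgRNAs passed either (lowest limma adjusted p = 0.427), and the exact permutation tests of single comparisons gave p = 0.2 or more for both genes, where 0.1 is the smallest that 3 against 3 libraries allow.

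The balance of the subunits within a library was compared as the log2 ratio of Rag1 to Rag2. Computed with 1 TPM added to each gene, its mean was -0.38 in the controls, 0.38 with sgLmo2, -0.92 with sgZbtb1, -0.18 with sgCbfa2t2 and -0.38 with sgCbfa2t3. The exact two-sided permutation test against sgControl gave p = 0.3, 0.4, 0.9 and 1 for the 4 sgRNAs in that order. The mean in the controls rested on 1 library and was 0 without sgControl replicate 1. The difference from the controls was 0.76 for sgLmo2 and -0.53 for sgZbtb1, and without that library it was 0.38 and -0.92. Across the 15 libraries the levels of these neighbouring genes showed no detectable relation (Pearson's r = 0.03, permutation p = 0.904, adjusted 0.904 over 3 pairs, Spearman's rho = -0.01, permutation p = 0.964, with r = 0.08 without the 2 libraries farthest from the median of Rag1).

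Dntt, with many more reads, measured 71.4, 85.1 and 78.0 TPM in sgControl, with a mean of 78.2 ± 6.83 (SD, n = 3). In sgLmo2 it measured 50.9, 65.0 and 51.5 TPM, with a mean of 55.8 ± 7.99. All 3 sgLmo2 libraries lay below all 3 controls, as did those of 4.97% of all genes tested in this comparison. In sgZbtb1 it measured 70.9, 94.7 and 117 TPM, with a mean of 94.2 ± 23.0, and in sgCbfa2t2 71.3, 84.9 and 109 TPM, with a mean of 88.5 ± 19.2. Both of these conditions overlapped the controls. In sgCbfa2t3 it measured 131, 95.9 and 120 TPM, with a mean of 116 ± 18.1, and all 3 libraries lay above all 3 controls, as did those of 6.70% of the genes tested. In bulk cells, fewer cells with Dntt and less Dntt mRNA per cell cannot be told apart.

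**Figure D2:**
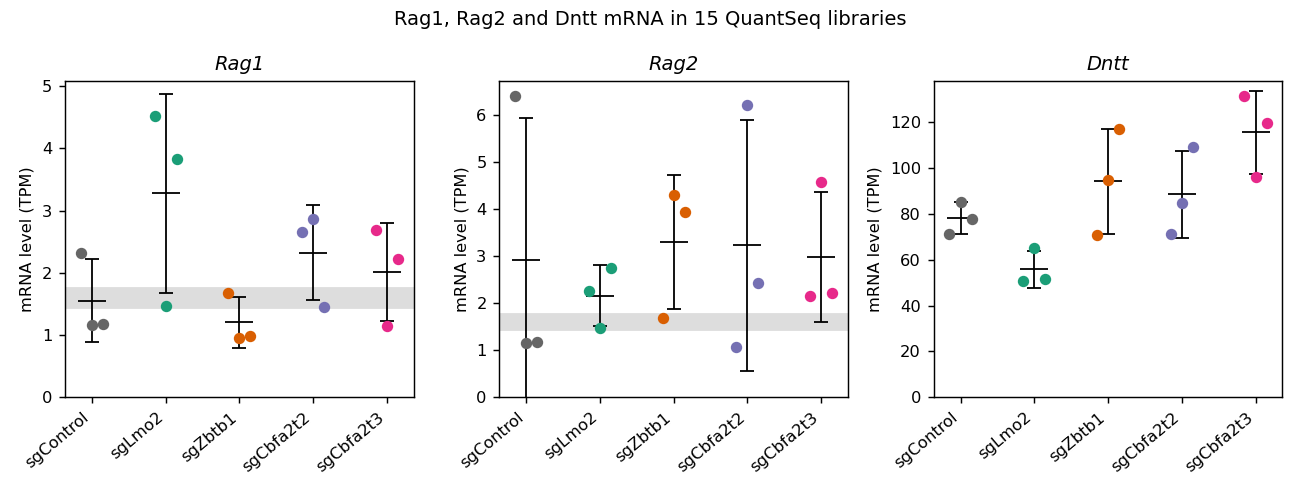
mRNA level in TPM (linear axes from 0, different in each panel) of Rag1, Rag2 and Dntt in the 5 conditions, with 1 point per library and the mean and SD of 3 libraries in black. The grey band marks 3 reads (1.43 to 1.76 TPM), within or below which 8 Rag1 and 5 Rag2 values lie, whereas Dntt lies between 50.9 and 131 TPM.

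Against sgControl, neither of these shifts of Dntt passed the threshold over all genes. The log2 difference was -0.48 in sgLmo2 (SE 0.16, 95% interval -0.80 to -0.17, limma adjusted p = 0.713) and 0.55 in sgCbfa2t3 (SE 0.16, 0.23 to 0.87, adjusted p = 0.102). It was 0.24 in sgZbtb1 (-0.08 to 0.56, limma adjusted p = 0.463) and 0.16 in sgCbfa2t2 (-0.16 to 0.48, adjusted p = 0.826). The sgZbtb1 value was 0.07 without its replicate 3 and 0.43 without its replicate 1. Over the alternatives against sgControl, the adjusted p was 0.483 or more in sgLmo2 and ranged from 0.0507 to 0.523 in sgCbfa2t3. The lowest of each came from limma with a replicate block. With other sgRNAs in place of sgControl, the limma adjusted p was 1.90e-05 in sgLmo2 and 0.0203 in sgCbfa2t3, as given with the comparisons between sgRNAs. The share of all genes that did pass was 0.0173%, 4.79%, 0.147% and 0.537% in the 4 comparisons. The unadjusted p was under 0.05 in 2 of the 12 comparisons of the 3 genes with sgControl, both of Dntt (0.00333 in sgLmo2 and 0.000949 in sgCbfa2t3, limma). Such p-values were found for 5.65%, 17.6%, 9.56% and 10.6% of all genes in the 4 comparisons. edgeR on the recovered reads called 0 of 12, and DESeq2 called 0 of the 5 for which it gave an adjusted p. The exact permutation test gave p = 0.1 for Dntt in sgLmo2 and in sgCbfa2t3, the smallest it can give.

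Of the 6 pairs of gene-targeting sgRNAs, the 3 with sgLmo2 differed most in Dntt. Dntt was 2.07-fold higher in sgCbfa2t3 than in sgLmo2 (log2 difference 1.04, SE 0.16, 95% interval 0.72 to 1.35, limma adjusted p = 1.04e-05), in a comparison where 0.736% of genes passed and 5.95% had all 3 libraries higher. It also met the study's thresholds for a differentially expressed gene there, an unadjusted p under 0.05, an absolute log2 change above 1 and a mean above 10, which 0.632% of genes met. The log2 change was under 1, so that these thresholds were not met, without sgCbfa2t3 replicate 1 (0.94), sgLmo2 replicate 1 (0.97) or sgLmo2 replicate 3 (0.98). Leaving out any of the 6 libraries kept the difference between 0.94 and 1.16 and the adjusted p at or below 0.000911. Dntt was 1.69-fold higher in sgZbtb1 than in sgLmo2 (log2 difference 0.72, limma adjusted p = 0.00153), where 5.06% of genes passed and 9.12% had all 3 libraries higher, but without sgZbtb1 replicate 3 the adjusted p was 0.0648. It was 1.59-fold higher in sgCbfa2t2 than in sgLmo2, with all 3 libraries higher (5.42% of genes), but with an adjusted p of 0.0572 this missed the threshold, which 0.234% of genes passed. The adjusted p ranged from 0.0195 to 0.432 over the alternatives tried, and was 0.0320 without sgCbfa2t2 replicate 1.

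Among the 3 sgRNAs other than sgLmo2 the Dntt levels were not told apart. sgCbfa2t3 exceeded sgZbtb1 by 0.31 on the log2 scale (95% interval -0.01 to 0.63, limma adjusted p = 0.517, with 1.13% of genes passing) and sgCbfa2t2 by 0.39 (0.07 to 0.71, adjusted p = 0.674, with 0.0779% passing). sgCbfa2t2 and sgZbtb1 differed by -0.08 (-0.40 to 0.24, adjusted p = 0.897, with 2.27% passing). In order of mean level the conditions ran from sgLmo2 (55.8 TPM) through sgControl (78.2), sgCbfa2t2 (88.5) and sgZbtb1 (94.2) to sgCbfa2t3 (116), and no 2 neighbours in this order passed the test. Against the 9 libraries that carried another gene-targeting sgRNA, none of them a control, Dntt was lower in sgLmo2 by a log2 difference of -0.80 (limma adjusted p = 1.90e-05) and higher in sgCbfa2t3 by 0.58 (adjusted p = 0.0203). These 2 values draw on each other's libraries and are not independent.

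**Figure D3:**
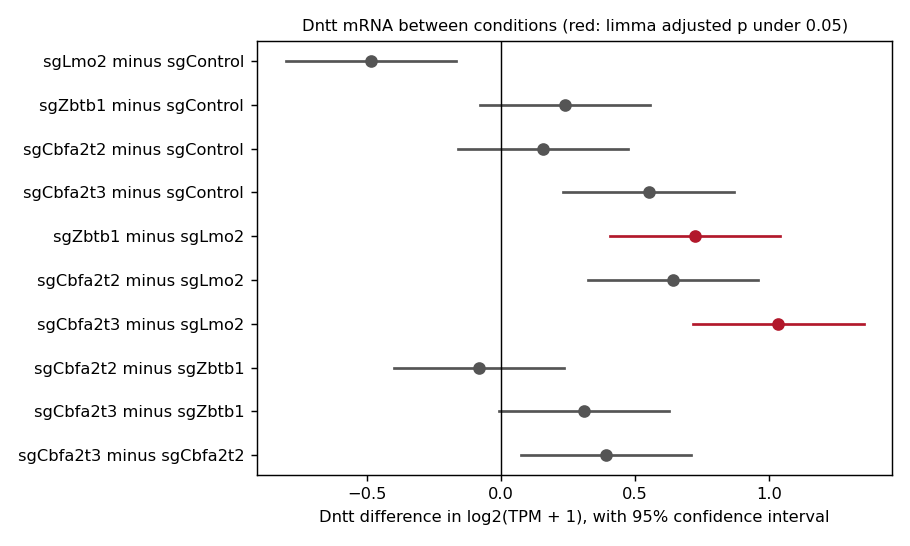
Difference of Dntt mRNA in log2(TPM + 1) for each of the 10 pairs of conditions, with the 95% confidence interval from limma as a line and pairs past an adjusted p of 0.05 in red. The pairs past the threshold are sgCbfa2t3 minus sgLmo2 at 1.04 and sgZbtb1 minus sgLmo2 at 0.72.

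Markers of each cell type were summed in each library, with no test of the sums. The summed level of 7 myeloid markers (Itgam, Csf1r, Mpo, Elane, Lyz2, Cebpa and Cebpe) ranged from 7.67 to 18.7 TPM in sgLmo2 and from 23.2 to 26.0 TPM in sgControl, and 1 of the 7, Elane, was at 0 throughout. It ranged from 26.6 to 35.4 TPM in sgCbfa2t3, from 23.1 to 34.1 in sgZbtb1 and from 20.3 to 39.4 in sgCbfa2t2, so that like Dntt it was lowest in sgLmo2. The summed level of the 5 lymphoid progenitor markers ranged from 1107 to 1187 TPM in sgLmo2, from 1022 to 1080 in sgControl and from 776 to 881 in sgCbfa2t3, the opposite order to Dntt in these 3 conditions. In sgZbtb1 it ranged from 733 to 851 and in sgCbfa2t2 from 920 to 942. Ptprc was the largest part of this sum, and its members did not all move alike. Il7r averaged 161 TPM in sgControl and 206 in sgLmo2, and Ly6d 158 and 200. Ptprc (476 and 482) and Flt3 (231 and 233) hardly differed, and Kit was lower in sgLmo2 (22.3 and 18.1). The summed level of 10 T lineage markers, of which Ptcra and Cd8a were at 0, ranged from 46.9 to 63.7 TPM in sgZbtb1 and from 109 to 118 in sgControl. In the other 3 conditions it lay between 76.4 and 129 TPM. The sum of 7 B lineage markers, Cd79a of them at 0 and Ebf1 most of the sum, ranged from 311 to 375 TPM in sgControl, from 261 to 331 TPM with sgLmo2, from 212 to 229 TPM with sgZbtb1, from 255 to 275 TPM with sgCbfa2t2 and from 255 to 291 TPM with sgCbfa2t3. The sum of 8 stromal markers, Col3a1 and Dcn of them at 0, ranged from 4.63 to 11.7 TPM in sgControl, from 6.57 to 13.7 TPM with sgLmo2, from 1.96 to 6.15 TPM with sgZbtb1, from 6.20 to 9.58 TPM with sgCbfa2t2 and from 5.71 to 10.2 TPM with sgCbfa2t3. The sum of 4 erythroid markers was at most 3.35 TPM in any library. The part of these lists in the Dntt differences was not tested.

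Of 17 genes for joining and end processing, all passed the low-value filter, and against sgControl 0 passed the threshold in sgLmo2, sgCbfa2t2 and sgCbfa2t3 (limma; 2, 1 and 2 had an unadjusted p under 0.05, and edgeR also called 0, as did DESeq2 among the 17, 2 and 6 genes to which it gave an adjusted p). Over all genes 0.0173%, 0.147% and 0.537% passed in limma in these comparisons and 5.65%, 9.56% and 10.6% had an unadjusted p under 0.05. In sgZbtb1 1 of the 17 rose and 0 fell, where 1.85% of all genes rose and 2.94% fell. These counts are near the background. The gene that rose was Dnttip2, a TdT-interacting protein also known for work in ribosome production, with 151 against 111 TPM (log2 difference 0.44, limma adjusted p = 0.0187). The median log2 difference of the list from sgLmo2 to sgCbfa2t3 was -0.02, -0.22, -0.11 and -0.02, against 0.013, -0.028, 0.0049 and -0.010 over all genes.

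The core joining factors were all present. Prkdc, the catalytic subunit of DNA-dependent protein kinase, averaged 29.0 TPM over the 15 libraries. Xrcc6 and Xrcc5, the Ku subunits that bind DNA ends, averaged 113 and 15.3 TPM. Lig4, the ligase that seals the ends, and its partner Xrcc4 averaged 4.93 and 6.90 TPM. In sgZbtb1 the log2 differences from sgControl were -0.16 for Prkdc, -0.30 for Xrcc6, -0.41 for Xrcc5, 0.58 for Lig4 and -0.42 for Xrcc4, none past the threshold (lowest limma adjusted p = 0.195). Of 5 genes for Rag protein turnover or its link to the cell cycle (Skp2, Cdk2, Ccna2, Dcaf1 and Cdkn1b), 1 fell in sgZbtb1. This was Cdkn1b, an inhibitor of cyclin-dependent kinases, with 32.4 against 49.5 TPM. Its limma adjusted p of 0.0499 did not hold with edgeR or DESeq2, and 2.94% of all genes fell in this comparison. In the other 3 comparisons 0 of the 5 passed by limma or edgeR, DESeq2 called 0 of the 5, 0 and 4 to which it gave an adjusted p, and 0, 0 and 2 had an unadjusted p under 0.05 in sgLmo2, sgCbfa2t2 and sgCbfa2t3, against 5.65%, 9.56% and 10.6% of all genes.

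Of 24 transcription factors known to act on the Rag locus, 22 passed the low-value filter, and 5 of them fell and 0 rose in sgZbtb1 against sgControl (12 had an unadjusted p under 0.05, and edgeR called 5 lower and 1 higher). Over all genes in this comparison 2.94% fell, 1.85% rose and 17.6% had an unadjusted p under 0.05. Runx1, which binds the Runx motif, fell from 320 to 180 TPM (log2 difference -0.83, limma adjusted p = 3.28e-09). Ebf1 tags fell from 336 to 217 TPM (-0.62, limma adjusted p = 6.96e-06), but the line lacks functional Ebf1, so they do not measure an active factor. Id2, which is listed because it blocks E proteins, fell from 157 to 104 TPM (-0.60, adjusted p = 0.00183). Bcl11a, a repressor needed by early lymphoid cells, fell from 44.8 to 25.04 TPM (-0.82, adjusted p = 0.0264). The fifth, the B lineage factor Pax5, lay under 10 TPM in both conditions (6.80 and 0.810 TPM, adjusted p = 0.00420) and is named although it falls outside the rule for naming. In the same comparison the log2 differences of Rag1, Rag2 and Dntt were -0.20, 0.34 and 0.24. In sgLmo2, sgCbfa2t2 and sgCbfa2t3 0 of the 22 passed in limma (3, 3 and 7 had an unadjusted p under 0.05), edgeR called 0, 0 and 1, and DESeq2 called 0, 1 and 0. Bcl11a averaged 21.03 TPM in sgLmo2, below its mean in sgZbtb1, with a log2 difference from sgControl of -1.05 (limma adjusted p = 0.110, and 0.0176 with a replicate block). The block also brought calls of Tcf4 in sgLmo2 (-0.49, limma adjusted p = 0.0225), of Erg in sgZbtb1 (0.92, adjusted p = 0.0430) and of Id2 in sgCbfa2t3 (0.49, adjusted p = 0.0112), genes named here after their values were seen. Over all genes 0.0173%, 0.147% and 0.537% passed in limma there, and 5.65%, 9.56% and 10.6% had an unadjusted p under 0.05. The list's median log2 difference was -0.02, -0.19, -0.02 and -0.09 in the 4 comparisons, from sgLmo2 to sgCbfa2t3.

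Among 12 early lymphoid genes, 10 passed the filter, and Ly6d and Ccr9 fell in sgZbtb1, sgCbfa2t2 and sgCbfa2t3, while 0 passed in sgLmo2 (2 had an unadjusted p under 0.05, and edgeR and DESeq2 called 0). Of all genes tested, 2.94%, 0.121% and 0.407% fell in the 3 comparisons with calls, and in sgLmo2 0.0173% passed and 5.65% had an unadjusted p under 0.05. In sgCbfa2t2 0 of these 2 calls remained without the low-value filter, 0 without sgControl replicate 3 and 1 with DESeq2. Ly6d, a surface marker of lymphoid progenitors, averaged 158 TPM in the controls, 200 with sgLmo2, 29.4 with sgZbtb1, 97.1 with sgCbfa2t2 and 57.9 with sgCbfa2t3. Ccr9, a chemokine receptor for entry into the thymus, averaged 923, 981, 359, 651 and 571 TPM in the same order. In sgCbfa2t3 the log2 differences from sgControl were -1.43 for Ly6d (limma adjusted p = 6.82e-10) and -0.70 for Ccr9 (adjusted p = 4.57e-06), where Dntt stood at 0.55 (adjusted p = 0.102). The comparisons share their control libraries.

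**Figure D4:**
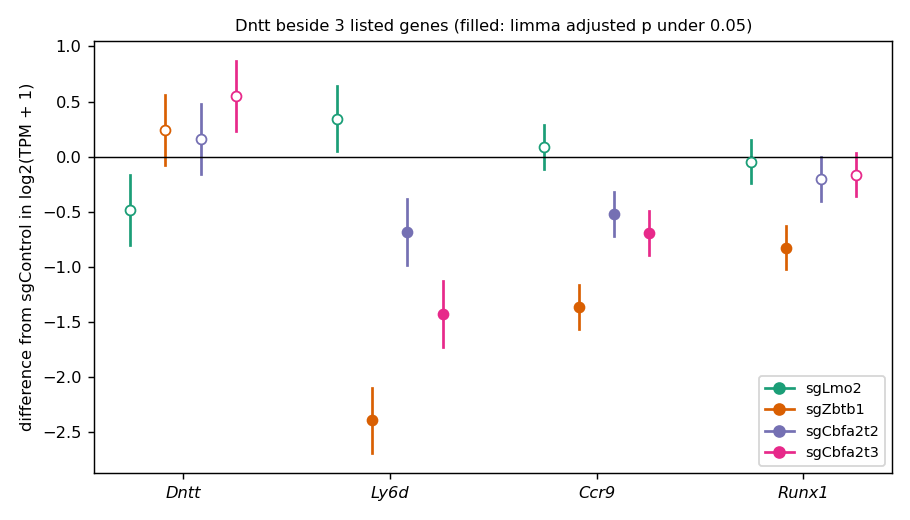
Difference from sgControl in log2(TPM + 1) for Dntt, Ly6d, Ccr9 and Runx1 under each gene-targeting sgRNA, with 95% confidence intervals from limma as lines and filled points for an adjusted p under 0.05. In sgCbfa2t3 Dntt stands at 0.55 and Ly6d at -1.43, and in sgLmo2 Dntt stands at -0.48.

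Of the genes within 200 kb, Traf6 and Prr5l at the Rag locus and Ccnj, Zfp518a, Blnk and Tm9sf3 at the Dntt locus passed the low-value filter, and 0 of these 6 passed the threshold against sgControl in any of the 4 comparisons (limma; 1 had an unadjusted p under 0.05, and edgeR and DESeq2 called 0). With 0.0173% to 4.79% of all genes passing in these comparisons, a count of 0 in 6 is near the background. Prr5l, a regulator of mTORC2, came nearest, with 10.9 TPM in sgZbtb1 against 20.9 TPM in sgControl (log2 difference -0.88, limma adjusted p = 0.0504), and it passed with a replicate block, a pseudocount of 0.1 or a filter at a mean above 10 TPM. Against sgLmo2, at 27.2 TPM, it was lower in sgZbtb1 by a log2 difference of -1.24 (limma adjusted p = 0.00213). Opalin and Tll2, the next genes downstream of Dntt, were listed at 0 in all 15 libraries, so Dntt was the only transcript detected between Blnk and Tm9sf3. B230118H07Rik, whose span covers the Rag genes, averaged 0.212 TPM and was left out by the filter. It lies on the same strand as Rag1 and on the other strand from Rag2. Whether strand was used in the counting is not stated in the sources used here, and overlap of its exons with those of the Rag genes was not examined. How well its reads and theirs are separated is therefore not known.

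Across the 15 libraries, the genes with levels most like Dntt among 8157 genes with a mean above 10 TPM were Gpatch4 (Pearson's r = 0.88), Ccnd2 (0.81) and Lmnb1 (0.79). Within conditions, with the condition means removed, these correlations were 0.72, 0.59 and 0.37. The genes were picked as the highest of 8157 correlations over 15 libraries, and the correlations were not tested. Ccnd2, the cyclin D2 gene, rose in sgCbfa2t3 against sgControl from 1130 to 1577 TPM (log2 difference 0.48, limma adjusted p = 0.000116). In this comparison 15 of 11554 genes rose. Ccnd2 was picked for following Dntt, which is highest in sgCbfa2t3, so the 2 rises are not separate observations. Rag1 was most like Srgn and Pdia6 (both 0.81) and Sec23b (0.79), and Rag2 was most like Ptpmt1, Sf3b2 and Mindy1 (0.75 each), but these rest on the low read numbers given above. Rag1 and Dntt had r = -0.50 (permutation p = 0.0596, adjusted 0.179 over 3 pairs, rho = -0.45 with p = 0.0915), which was -0.04 without the 2 libraries farthest from the median of Rag1 and so rests on them. Rag2 and Dntt had r = 0.16 (permutation p = 0.553, adjusted 0.830, rho = 0.17 with p = 0.539), and 0.31 without the 2 libraries farthest from the median of Rag2.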

How the data were processed

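The 15 QuantSeq libraries were trimmed, aligned to mm10 and counted per gene by the authors (fastp and STAR per the submitters' processing notes), who deposited values scaled to a fixed total per library. The deposited values, named TPM by the authors, are CPM, reads scaled to library size without gene length. Whole reads were recovered from 100% of the values within 0.1 read. The Zbtb1 and Cbfa2t3 peak lists were made by the authors with Bowtie 1.1.1 and HOMER, and the deposited scores are HOMER peak scores of at least 15. The row without a gene name held at most 5.86e-05% of a library and was left out. The 18 columns of the authors' means, SDs, tests and folds were not used.

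Genes with a mean above 1 TPM (11554) were fitted with limma 3.58.1 (trend) on log2(TPM + 1) over all 15 libraries, two-sided, with Benjamini-Hochberg adjustment over all genes. The test was checked on simulated data. Single comparisons used exact permutation tests, and correlations used 100000 permutations. edgeR 4.0.16 and DESeq2 1.42.0 on recovered reads, other filters, scalings and pseudocounts and leaving out each library were alternatives. Positions are from GENCODE vM21. Named genes were the members, the targeted genes, listed genes with an adjusted p under 0.05 against sgControl and a mean above 10, the core joining factors, genes within 200 kb that passed the filter, and the 3 genes most like each member. The members and gene lists were chosen with earlier results of these data known. The replicates are described by the study as biologically independent. Chi-square statistics per degree of freedom between replicates were 2.23 to 3.60, above sampling noise.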

Additional observations from a re-analysis of the deposited data

How the results depend on the processing

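The call of Dntt for sgCbfa2t3 minus sgLmo2 held under the 9 alternatives tried, with log2 differences of 0.94 to 1.16. With the 9 other gene-targeting libraries as comparison, Dntt passed the threshold in sgLmo2 (-0.80) and sgCbfa2t3 (0.58), which it did not against sgControl. For sgCbfa2t2 minus sgLmo2, Dntt passed with the replicate block (0.64), size factors (0.65) and edgeR (0.67). The cause was not tested. Libraries with the same replicate number were weakly alike. The mean correlation of deviations was 0.0279 for the same number and -0.0139 for different numbers, with 0 of 30 same-number pairs above 0.1. Still, 14 of 15 libraries correlated best with their own number, so a small shared part goes with the number. The main fit leaves it out, and the labels do not say what it is. The replicate block raised the genes called against sgControl from 2, 554, 17 and 62 to 14, 709, 36 and 93 in sgLmo2, sgZbtb1, sgCbfa2t2 and sgCbfa2t3, and brought calls of Bcl11a and Tcf4 in sgLmo2, Erg and Prr5l in sgZbtb1 and Id2 in sgCbfa2t3. It changed no other call of the 3 genes or of the listed genes. Without the low-value filter 2, 330, 0 and 24 genes were called, with DESeq2 1, 464, 34 and 52, and against the 9 other libraries 201, 501, 9 and 31. Leaving out 1 library gave 1 to 5, 306 to 460, 2 to 26 and 26 to 59. In sgZbtb1, 214 genes were higher and 340 lower with limma, 237 and 227 with DESeq2, and in sgCbfa2t3 15 and 47 with limma, 23 and 29 with DESeq2. Ly6d and Ccr9 in sgCbfa2t2 gave 0 calls without the filter and 1 with DESeq2.

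Leaving out 1 library in turn gave Dntt log2 differences of 0.07 to 0.43 for sgZbtb1 minus sgControl, -0.0025 to 0.30 for sgCbfa2t2 minus sgControl, 0.12 to 0.48 for sgCbfa2t3 minus sgZbtb1, 0.25 to 0.55 for sgCbfa2t3 minus sgCbfa2t2, 0.56 to 0.91 for sgZbtb1 minus sgLmo2, 0.48 to 0.79 for sgCbfa2t2 minus sgLmo2 and -0.27 to 0.087 for sgCbfa2t2 minus sgZbtb1. For Rag1 they were 0.47 to 1.05 for sgLmo2 minus sgControl, -0.34 to 0.011 for sgZbtb1 minus sgControl, 0.26 to 0.59 for sgCbfa2t2 minus sgControl, 0.07 to 0.46 for sgCbfa2t3 minus sgControl and -0.36 to 0.078 for sgCbfa2t3 minus sgCbfa2t2. For Rag2 against sgControl they were -0.37 to 0.52 in sgLmo2, 0.04 to 0.93 in sgZbtb1, -0.30 to 0.77 in sgCbfa2t2 and -0.064 to 0.82 in sgCbfa2t3. For Rag2 between sgRNAs they were -0.23 to 0.67 for sgCbfa2t2 minus sgLmo2, -0.63 to 0.27 for sgCbfa2t2 minus sgZbtb1, -0.42 to 0.078 for sgCbfa2t3 minus sgZbtb1 and -0.37 to 0.53 for sgCbfa2t3 minus sgCbfa2t2. The difference from sgControl in the Rag1 to Rag2 log2 ratio ranged from 0.38 to 0.95 for sgLmo2, -0.99 to -0.27 for sgZbtb1, -0.30 to 0.56 for sgCbfa2t2 and -0.38 to 0.50 for sgCbfa2t3. The sign also turned for Rag2 in sgLmo2 with a pseudocount of 0.1 (0.0057), Rag1 in sgCbfa2t3 against the 9 other libraries (-0.060), Rag2 in sgCbfa2t3 minus sgCbfa2t2 with edgeR (-0.12) and the difference of the ratio between sgCbfa2t3 and sgControl with a pseudocount of 0.1 (-0.060 in place of 0.00054). A filter at a mean above 10 left no value for Rag1 or Rag2, and DESeq2 gave no adjusted p for both Rag genes in sgZbtb1, sgCbfa2t2 and sgCbfa2t3 or for Dntt in sgCbfa2t2.

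Counting sites by a centre within 100 kb of a start site gave 2 Zbtb1 and 4 Cbfa2t3 sites in place of 0 and 2. A score of at least 30 left 0 and 2. With 0 Zbtb1 sites assigned to the 3 genes, the rules for shared sites could give no other count than 0. The alternatives between gene-targeting sgRNAs and those for the gene lists were chosen after seeing the data. Depth limits Rag1 and Rag2, at 2 to 13 reads per library.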
